A study of Mus musculus with 12 samples.

Results

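The chromatin response of natural killer (NK) cells to the cytokines IL-12 and IL-18 was compared between cells with and without Regnase-1, region by region and gene by gene. ATAC-seq, in which a transposase cuts and tags accessible DNA, had been run on NK cells from mouse spleen. The wild-type (WT) cells carried the floxed Regnase-1 allele (Reg-1fl/fl) and the knockout (KO) cells lacked the gene in NK cells (Reg-1ΔNK), and each genotype was kept as an unstimulated control or treated with IL-12/18, with 3 libraries in each of the 4 groups. The driver of the deletion, the ages of the mice and the dose and duration of the treatment are not given in the sources used here. The labels do not say that the 3 libraries of a group came from separate mice, so every p-value measures how these 12 libraries scatter, and that scatter may be technical only.

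All 12 libraries were used. From each, the 35110 strongest peak intervals were taken by the deposited −log10 q, a length set by the shortest list, and the 12 equal lists were merged wherever intervals overlapped by 1 bp. Of 51700 merged regions, 45082 were called in 2 or more libraries and were kept, and they lay nearest to 14289 of 21883 protein-coding genes (within 50 kb). For each region the number of calling libraries was counted in each group. The difference of responses, D, is the KO change (stimulated minus control) minus the WT change. D is negative where KO cells gained fewer or lost more calling libraries than WT cells, so it is not a measure of response size, and a D of 3 in size is what 1 group switching from 0 to 3 libraries gives. A gene's D is the sum over its regions, in library calls. D alone does not say which group moved, so the 4 counts are given beside it, written in the order WT control, WT stimulated, KO control, KO stimulated.

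IL-12 acts through JAK kinases and the transcription factor STAT4, and IL-18 through MyD88, IRAK kinases and NF-kB. In combination they are strong inducers of interferon gamma in this cell type. Zc3h12a encodes Regnase-1, which cleaves stem-loop structures in the messenger RNAs of cytokines, Il6 among the best known, and so restrains inflammatory programmes in several immune cell types. Peaks away from gene ends mostly mark enhancers, which carry much of the cytokine-dependent regulation of NK genes.

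Equal lists were not equally stringent. The deposited lists held 35110 to 63128 intervals. The last interval taken had a deposited −log10 q of 1.31, 4.60 and 13.2 in the KO stimulated libraries, 16.6 to 27.1 in the WT stimulated ones and 5.76 to 15.9 in the 6 controls. KO stimulated libraries 1 and 2, and library 1 above all, thus reached down to weaker peaks than all others. KO stimulated library 3 lay within the range of the controls and below the WT stimulated libraries. NK marker genes carried 34 to 43 called regions per library, with regions at 9 of 10 markers. The B cell list had 4 to 8, the T cell list 5 to 9, the myeloid list 5 to 7 and the erythroid list 2 to 3, with regions at 3 of 7, 4 of 8, 4 of 8 and 4 of 8 markers and none at Cd79a, Ms4a1, Cd4, Cd8a, Csf1r or Lyz2. At rest the T cell list stood at 5, 6 and 6 regions in WT and 7, 8 and 8 in KO libraries, the B cell list at 8, 7 and 8 against 5, 6 and 6, and the NK list at 41, 43 and 41 against 39, 39 and 39. The control groups did not overlap in these 3 lists, and the part of other cells in the results was not tested.

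The promoters of Il6, Slc11a1, Phf11b and Tpm1 show the forms a difference took at gene starts, the first 3 with a negative and the last with a positive D. Each line gives the bases from 250 before to 50 after the RefSeq start (GRCm38.p6, equivalent to mm10), 5′ to 3′ on the gene's strand. Capitals mark matches, on either strand, to TGANTCA (AP-1), the NF-kB consensus, TCACAC (T-box), TGTGGT (RUNX), TTCNNNGAA (STAT) or ATGCAAAT (octamer).
Il6: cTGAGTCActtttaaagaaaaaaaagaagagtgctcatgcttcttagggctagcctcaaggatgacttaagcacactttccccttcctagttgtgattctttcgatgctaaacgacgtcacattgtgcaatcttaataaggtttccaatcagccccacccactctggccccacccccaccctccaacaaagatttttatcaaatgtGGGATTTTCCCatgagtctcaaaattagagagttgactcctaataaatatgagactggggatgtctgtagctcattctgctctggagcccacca
Slc11a1: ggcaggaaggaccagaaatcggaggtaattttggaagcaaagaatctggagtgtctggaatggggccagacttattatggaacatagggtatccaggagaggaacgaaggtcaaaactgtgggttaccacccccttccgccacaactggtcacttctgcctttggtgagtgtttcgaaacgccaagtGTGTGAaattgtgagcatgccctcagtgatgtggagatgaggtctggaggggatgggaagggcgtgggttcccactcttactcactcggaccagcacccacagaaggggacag
Phf11b: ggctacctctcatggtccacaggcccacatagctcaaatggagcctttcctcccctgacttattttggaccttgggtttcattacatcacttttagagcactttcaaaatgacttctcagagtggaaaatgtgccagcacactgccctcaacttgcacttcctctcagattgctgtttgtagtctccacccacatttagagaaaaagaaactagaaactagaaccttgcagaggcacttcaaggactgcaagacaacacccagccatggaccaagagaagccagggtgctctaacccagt
Tpm1: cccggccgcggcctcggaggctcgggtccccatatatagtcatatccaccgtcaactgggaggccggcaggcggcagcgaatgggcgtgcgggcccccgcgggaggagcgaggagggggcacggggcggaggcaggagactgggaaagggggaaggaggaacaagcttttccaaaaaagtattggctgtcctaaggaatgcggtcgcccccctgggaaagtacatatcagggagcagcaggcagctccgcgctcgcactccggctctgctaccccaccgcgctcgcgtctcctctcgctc
The Il6 window, chr5:30012864-30013163 (+ strand), held 1 AP-1 match and an NF-kB match read on both strands, which overlap. The Slc11a1 window, chr1:74374953-74375252 (+), held 1 T-box match. Phf11b, chr14:59341281-59341580 (−), and Tpm1, chr9:67049164-67049463 (−), held none of the 6. A match is a run of letters and shows no binding.

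At the start of Il6, the gene of a cytokine whose messenger RNA Regnase-1 degrades, the region chr5:30012343-30015479 was called in 0, 3, 3 and 3 libraries (D of -3). Among the intervals of each list, ranked from 1 for the strongest, its peak stood at 18034, 19927 and 20182 in WT stimulated libraries and at 22631, 18306 and 21298 in KO controls. It stood at 5931, 8169 and 8302 in KO stimulated libraries, and a WT control held a peak in 1 of 3 lists, below the cut. The KO control peak was thus at the rank of the stimulated WT peak, and the stimulated KO peak stood above all other groups without overlap. Summed over both its regions Il6 had D of -3, and this turned to 3 with 17555 peaks per library and also when a call had to span 50% of the region.

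Slc11a1, a metal transporter of phagosomes, was called at its promoter in 0, 3, 3 and 2 libraries (D of -4), and no WT control list held a peak of any strength there. Phf11b, an interferon-regulated PHD finger gene, was called in 0, 3, 3 and 3, also with no WT control peak. Tpm1, a tropomyosin of the actin cytoskeleton, was called in 3, 1, 0 and 3 libraries (D of 5), but all 12 lists held a deposited peak, and its ranks ran from 26561 to 45114 across the cut. Of all promoter windows over regions with D of -3 or lower, 7 of 49 (14.3%) held an AP-1 match, against 5.27% of 13668 windows over any kept region and 7.81% of all 32851 windows. The Wilson 95% interval of the former, 7.10% to 26.7%, covers counting error at most, as it takes the windows as independent. They are not, since the 49 windows lie over 41 regions and some genes have several overlapping windows. The windows over regions with D of 3 or higher held one in 8 of 116 (6.90%), and these lie over 87 regions. T-box letters were in 22.4% of the windows of negative regions (Wilson interval 13.0% to 35.9%), in 15.5% of those of positive regions and in 10.8% over any kept region. Over all 32851 windows the T-box share was 14.5%, within the interval of the negative regions. For RUNX the shares of negative, positive and any kept regions were 18.4%, 19.0% and 13.2%, for NF-kB 28.6%, 22.4% and 26.7%, for STAT 4.08%, 6.90% and 6.64% and for the octamer 2.04%, 0.862% and 1.30%. Over all windows they were 16.8% for RUNX, 20.7% for NF-kB, 8.30% for STAT and 1.74% for the octamer.

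Across the genome, negative D was more frequent than positive D, to a degree that depended on the peaks taken. D was 0 in 27550 regions, -3 or lower in 1325 (2.94% of all kept regions) and 3 or higher in 935 (2.07%). With all deposited peaks the counts were 4987 and 279, with a common −log10 q cut of 5 they were 4764 and 209, and with 17555 peaks per library 487 and 443. In the negative class the mean change on stimulation was 1.99 calling libraries per region in WT and -1.12 in KO cells. In the positive class it was -1.92 in WT and 1.19 in KO. The opposite signs follow largely from picking the classes by D. Over all kept regions the mean change was 0.0273 in WT and -0.0706 in KO. No single region passed. With genotype labels permuted within each treatment (exact permutation test, 400 rearrangements, two-sided) 0 of 1817 testable regions had an adjusted p of 0.05 or less. The smallest was 0.727, and 79 regions with negative D (4.35%) and 46 with positive D (2.53%) were at 0.05 or less unadjusted. The summed D per gene gave 0 of 14289 genes by the same exact permutation test (smallest adjusted p 1.00). Unadjusted, 130 genes with negative D (0.910%) and 45 with positive D (0.315%) reached 0.05. A region that differs in 1 group alone, such as 0, 3, 0 and 0, has an exact permutation p of 0.1 and was not among the testable regions. The region test bears only on near-complete changes in both treatments, and it says nothing of most patterns below. The smallest p that this exact permutation test can give is 0.005. Over 1817 regions a few regions at that value cannot pass adjustment, so the count of 0 says little of single regions. In simulated data with 200 changed genes the gene test recovered 0% of them, so its count of 0 says little.

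The threshold of 3 cuts a continuous run of values: 3223 regions had D of -2, 1187 of -3 and 125 of -4, and 2662 had D of 2, 844 of 3 and 82 of 4.

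Negative D came from several distinct patterns, as the plot of complete patterns shows. In 358 of the 1325 regions (27.0%) the counts were 0, 3, 0 and 0: WT cells gained the region and KO cells did not. In 228 (17.2%) they were 0, 3, 3 and 3, a region that WT cells gained and KO cells already had at rest. Another 155 were 3, 3, 3 and 0, lost in stimulated KO cells alone, and 84 were 0, 0, 3 and 0. The genotypes differed more in the stimulated than in the control cells in 812 negative regions (61.3%) and more in the controls in 468 (35.3%). Over all kept regions, most of which did not differ more in either, the shares were 23.0% and 13.6%, with the same lean. In the positive class they were 45.1% and 50.6%.

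**Figure D1:**
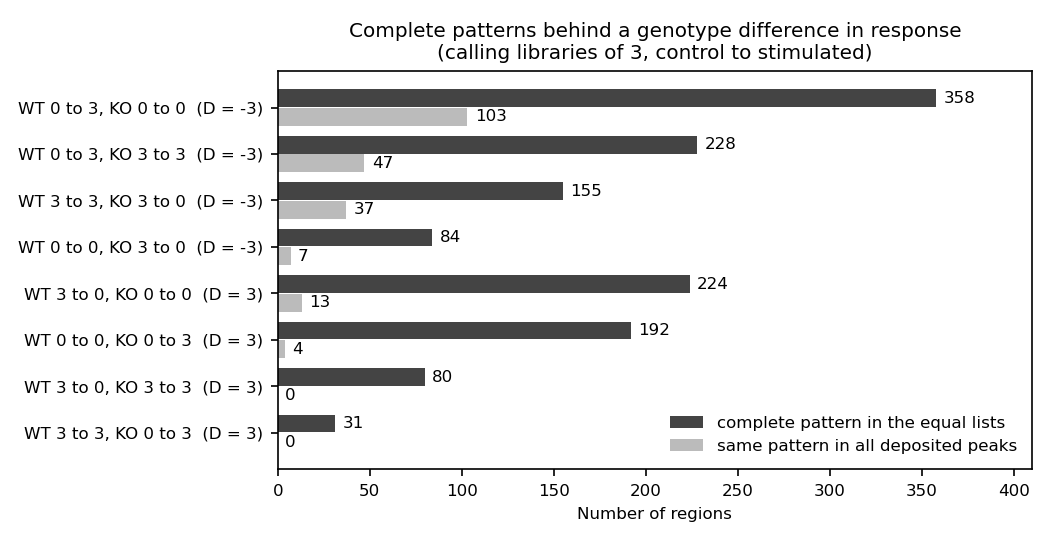
Number of regions (horizontal axis) in each complete pattern of calls, with the change of each genotype from control to stimulated in calling libraries of 3. Dark bars count the pattern in lists of 35110 peaks and light bars those where the same pattern held among all deposited peaks: 103 of 358, 47 of 228, 37 of 155 and 7 of 84 for negative D, and 13 of 224, 4 of 192, 0 of 80 and 0 of 31 for positive D; the full lists lower D in general, so the light bars do not compare the 2 directions.

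In most regions that resting KO cells already had, the KO peak ranked higher after stimulation. Of the 228, the peak ranked higher in every KO stimulated than in every KO control library in 188 (82.5%) and lower in 0, where of the 22611 regions called in all 6 KO libraries 18.1% rank higher and 22.6% lower. The median rank moved from 27770 to 14878. Against the WT stimulated libraries, all KO stimulated ranks were higher in 123 (53.9%) and lower in 4 (1.75%), beside 11.4% and 11.0% of the 24892 regions called in all 6 stimulated libraries. At these regions D was negative because the KO control peak passed the cut, while the KO peak still climbed with stimulation. These shares describe regions picked by their calls in the same lists and carry no test. A fall past the cut would have taken a region out of the pattern, which favours a rise. The background regions were not matched for rank. A weaker WT control peak lay below the cut in 3 of 3 lists at 55 of the 228 and in none at 47.

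Zeb2, a repressor needed for terminal NK maturation, gave a further case. At chr2:44955917-44958080, 25.4 kb from the gene, no WT control list held a peak. The rank was 5859, 5967 and 4971 in WT stimulated, 32689, 28769 and 27644 in KO control and 1753, 4060 and 4249 in KO stimulated libraries. An intergenic region on chromosome 5, chr5:29919760-29921437, with no protein-coding gene within 50 kb, behaved alike. No WT control list had a peak there, and the ranks were 8723, 8610 and 8187, then 16191, 16238 and 16735, then 2883, 3824 and 4807. In both regions the 3 groups with peaks did not overlap, and stimulated KO cells ranked highest.

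At Ifng, which encodes interferon gamma, the region chr10:118494426-118496340 (48.5 kb from the gene) was called in 0, 3, 3 and 3 libraries. Its peak stood at rank 9689, 10262 and 8123 in WT stimulated, 19984, 18398 and 21961 in KO control and 6145, 8104 and 7799 in KO stimulated libraries. A second Ifng region, chr10:118404455-118404872, was instead missing from stimulated KO cells, with 1, 3, 2 and 0 calls (D of -4) and no peak of any strength in the 3 KO stimulated lists. Over all 16 regions of the locus, 10, 11 and 12 were called in WT controls, 16, 15 and 16 in WT stimulated, 13, 12 and 11 in KO controls and 13, 14 and 15 in KO stimulated libraries. The KO controls overlapped the WT controls, the KO stimulated libraries overlapped both KO controls and WT stimulated libraries, and D was -8 ± 3.16 (SE; exact permutation p = 0.065, adjusted p = 1.00).

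Regions of the same 0, 3, 3 and 3 pattern lay near other effector and regulatory genes. They included Pim1, a survival kinase gene induced by cytokines (ranks of 11630, 10130 and 13487 in WT stimulated, 28009, 32998 and 31176 in KO control and 18978, 14194 and 10559 in KO stimulated libraries). Ctla4, an inhibitory receptor, stood at 13800, 15079 and 13017, at 23995, 31875 and 25067 and at 6780, 9611 and 8949. The chemokine gene Xcl1, the cytokine gene Il10, the survival gene Bcl2, the receptor gene Il12rb2, the kinase genes Jak2 and Cdk6, the transcription factor gene Nfil3, Arid5a and Zc3h12a itself each had such a region. Jak2, Cdk6 and Zeb2 also had regions of the opposite sign, with D of 3. Arid5a encodes a protein that stabilises messenger RNAs Regnase-1 degrades. The Zc3h12a region, chr4:125145210-125145951, lay 17.3 kb from the gene, and all 3 WT control lists held a weaker peak there. Of this group the WT control lists were empty at Zeb2 and Il10 and held 1 to 3 weaker peaks at the others.

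**Figure D2:**
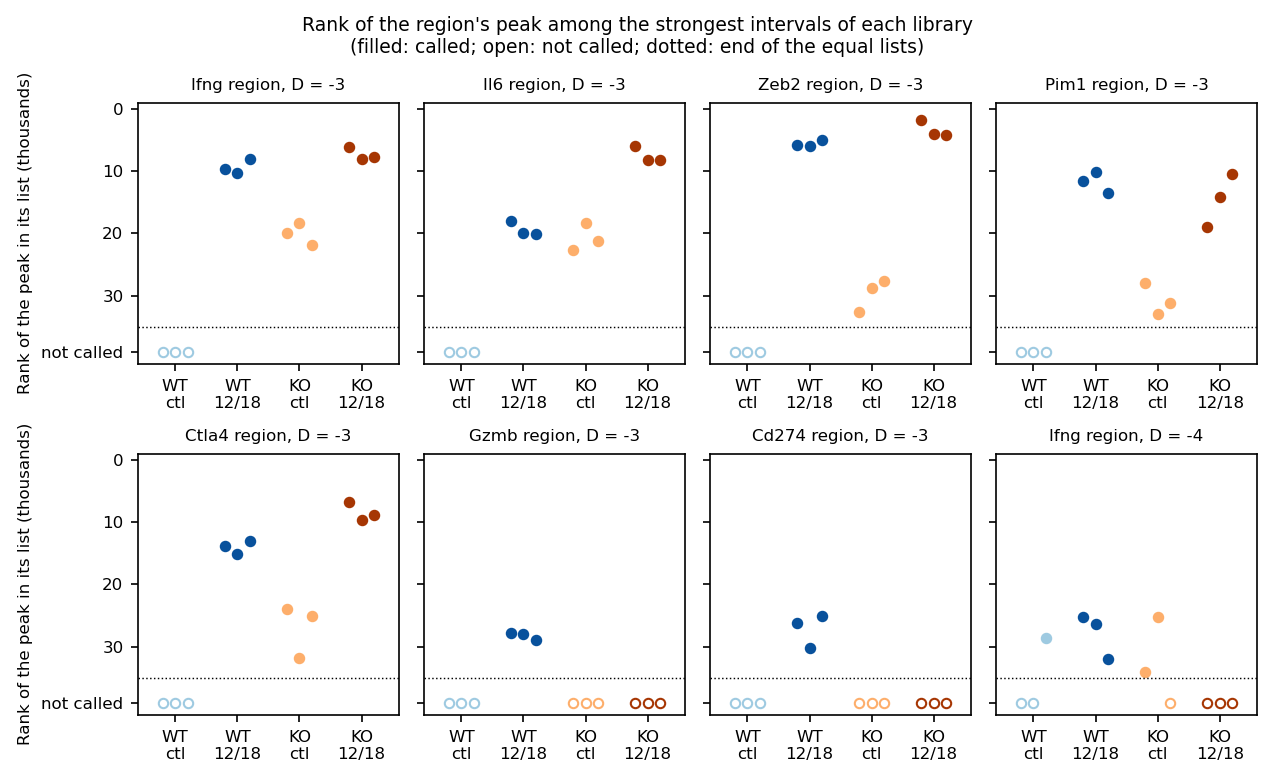
Rank of a region's peak in the list of each library (vertical axis, strongest at the top, axis numbers as marked) for 8 regions, with 3 libraries per group; open symbols below the dotted line were not called. At the first 5 regions KO control libraries were called and KO stimulated ranks were higher than KO control ranks, while at Gzmb and Cd274 the 3 WT stimulated libraries alone were called.

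Other regions were gained in WT cells only. At chr14:56271540-56272195, 9.21 kb from Gzmb, which encodes the granule protease granzyme B, the deposited folds were 9.44 to 11.2 in the WT stimulated libraries, at ranks 27851, 27928 and 28906, and the 9 other lists held no peak of any strength. The same held at Prdm1 (BLIMP1, a differentiation factor; chr10:44462343-44462827, folds of 11.2, 9.44 and 11.7), Tox2 (chr2:163293561-163293833), Ets1 (chr9:32778939-32779415) and Bach2 (a repressor of effector genes; chr4:32366239-32366542), the last with folds of 10.8, 7.86 and 8.77. At Ets1 the folds of 7.42, 6.88 and 8.77 lay little above those at the cut of the same libraries (7.18, 6.69 and 8.39). Near Cd274, which encodes the checkpoint ligand PD-L1, and Myc a similar region had weaker peaks in 1 KO control and 1 KO stimulated list each. In all, 103 regions showed 0, 3, 0 and 0 calls in the full lists too, and Ramp3 and Grap2, an adaptor of lymphocyte receptor signalling, had those with the highest folds near a gene (13.8 to 15.8 and 12.4 to 15.6). Of the 358 such regions in the equal lists, a weaker peak was present in 1 KO stimulated list at 203, in 2 at 27 and in 3 at 0. The list of KO stimulated library 1 ends at the cut, so it cannot hold weaker peaks.

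Regions missing only from stimulated KO cells (3, 3, 3 and 0) mostly ranked lower in stimulated WT cells than in WT controls. Of the 155, every WT stimulated library ranked lower than every WT control in 112 (72.3%) and higher in 1, against 34.5% and 21.5% of the 24403 regions called in all 6 WT libraries. The 155 were picked by their calls in the same lists, the background was not matched for rank, and these shares carry no test. At Ranbp2, a nuclear pore protein gene, the ranks were 20482, 17342 and 16910 in WT control libraries. They were 26449, 27456 and 27316 in WT stimulated libraries, with no peak in any KO stimulated list. Gadd45g, a stress-induced gene that cytokines also induce, and Mei1 had the same form. A region 18.6 kb from Slc2a1, which encodes the glucose transporter GLUT1, went from 24176, 15792 and 19034 to 31853, 31301 and 26145 in WT and was called in 3 KO control and 0 KO stimulated libraries, 1 of which held a weaker peak.

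Complete responses were also followed from one genotype to the other. The regions were picked by complete calls of one genotype in the same lists, which favours a smaller change in the other. These shares carry no test. Of 4245 regions gained in WT (0 to 3 libraries), 1625 (38.3%) were also gained completely in KO, 3517 (82.9%) rose in KO by at least 1 library, 671 did not change and 57 fell. KO stimulated library 3 called 86.2% of them and library 2 69.4%, with library 1 the lowest, so library 3 stood apart from the other two. KO control libraries already called 10.5% to 13.4% of them, where WT controls called none by the choice of regions. Of 2342 regions gained in KO, 1625 (69.4%) were gained completely in WT, and WT control libraries already called 3.84% to 7.17% of them. Of 2896 regions lost in WT, 992 (34.3%) were lost completely in KO and 2431 (83.9%) fell.

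Positive D often came with weaker WT peaks past the cut. Its complete patterns were 3, 0, 0 and 0 (224 regions), 0, 0, 0 and 3 (192), 3, 0, 3 and 3 (80) and 3, 3, 0 and 3 (31). Of the 192 called in KO stimulated libraries alone, 145 (75.5%) held a weaker deposited peak in all 3 WT stimulated lists, and 12 held none there. With the full lists 26 of the 935 regions still had D of 3 or higher. The full lists are longest in WT stimulated libraries and give a mean D of -0.506 over all kept regions, so this loss does not show that positive D is less firm. Library 1 of the KO stimulated group, whose cut was lowest, called 66.0% of the positive regions, library 2 58.7% and library 3 48.3%; in the negative class the shares ran the other way, 20.8%, 24.6% and 37.1%. The part of the cut in these counts was not tested apart from the alternatives named below.

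A few positive regions had no weaker peak elsewhere. Tbxas1 (thromboxane synthase), Mras (a Ras-like GTPase) and Pik3cg (a PI3-kinase subunit of leukocytes) each had a region with deposited peaks in the 3 KO stimulated lists and in no other, with folds of 4.42 to 9.46, 4.42 to 7.85 and 4.28 to 7.95. Among the list genes, 1 Cd86 region (chr16:36663092-36663719) had peaks in 3 KO stimulated lists, 1 KO control list and no WT list. An intergenic region on chromosome 5 (chr5:29935705-29936946) ranked 10038, 12686 and 11748 in KO stimulated libraries, no control list held a peak there and the WT stimulated peaks ranked 52331, 39780 and 36199, all below the cut. Near Serpinb9, the granzyme B inhibitor gene, the call was 3, 3, 0 and 3, where the KO control peak ranked 36200, 35348 and 42011 and the WT control peak 35003, 28684 and 31979, so a narrow step at the cut gave D of 3.

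The regions with the largest D were, on the negative side, 1 near Ceacam9 (-6) and those near U2af1, Epb41, Malsu1 and Gm960 (-5 each). The Ceacam9 region, chr7:16728556-16729174, was the one region of the genome called in 0, 3, 3 and 0 libraries. Its ranks were 32596, 30405 and 34186 in WT stimulated and 31234, 31718 and 32023 in KO control libraries, and weaker peaks at 37460 and 38265 in WT controls and 35696 and 42531 in KO stimulated libraries lay just past the cut (exact permutation p = 0.005, adjusted p = 0.727). At U2af1, which encodes a splicing factor that reads the 3′ splice site, chr17:31664816-31665228 ranked 17208, 20067 and 20027 in KO controls and 27602 and 30645 in WT stimulated libraries 2 and 3, with no deposited peak in the 7 other lists. The positive side held regions at Akap13, Pkm (pyruvate kinase, a glycolytic enzyme), Bin3, Dop1b and Tpm1 (5 each). At Pkm the rank was 20379 in KO stimulated library 1 and 26787 to 45104 in the 9 other libraries with a peak.

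Members of either class were mostly distal. Of the negative regions 7.85%, and of the positive ones 15.1%, reached to 1 kb or less from the start or end of a gene, against 27.4% of all kept regions, and the median widths were 716, 858 and 1193 bp. A narrower region comes within 1 kb of an end less easily, and the widths were not matched. The share with D of -3 or lower was highest on chromosome 13 (3.93%), beside 2.94% of all kept regions, and was 0 of 18 regions on Y.

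By gene, the most negative sums were those of Inpp4b (-17), Specc1 (-17), Creb5 (-17), Dock10 (-16), Pecam1 (-15), Prkar1b (-15), Abtb2, Peak1, Atp8b4 and Pip4k2a (-14 each). None passed adjustment (exact permutation test, adjusted p = 1.00). A D of -3 or lower was reached by 1376 genes (9.63%) and of 3 or higher by 779 (5.45%). Genes with more regions reach large sums more easily, and of the 2406 genes with 5 or more regions 28.6% and 13.7% did so.

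Pecam1, which encodes the adhesion receptor CD31, had the smallest unadjusted p of the 10 (exact permutation p = 0.005, the smallest possible). Of its 10 regions 1, 5 and 3 were called in WT controls, 8, 8 and 8 in WT stimulated, 7, 8 and 6 in KO controls and 7, 7 and 7 in KO stimulated libraries. WT controls lay below all other groups, and the KO groups overlapped. The region chr11:106694535-106695510 within the gene had no WT control peak and KO ranks of 25557, 32804 and 31652 at rest and 21616, 14136 and 13366 with stimulation.

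Prkar1b, a regulatory subunit of protein kinase A, rose in WT from 8, 9 and 9 to 14, 15 and 14 of 17 regions and in KO went from 8, 8 and 10 to 9, 10 and 9. WT stimulated libraries lay above all other groups, and the rest overlapped (D of -15 ± 2.65, SE; exact permutation p = 0.065). Abtb2 went from 6, 6 and 6 to 12, 12 and 9 in WT and from 7, 7 and 8 to 7, 7 and 9 in KO. Atp8b4, a phospholipid flippase gene, rose in both genotypes, from 8, 8 and 7 to 20, 19 and 18 in WT and from 8, 11 and 8 to 15, 14 and 18 in KO. Its stimulated groups overlapped at 18 and its control groups at 8.

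Inpp4b, a phosphatase of the PI3-kinase pathway, moved in opposite directions. It was called in 7, 10 and 10 of 18 regions in WT control and 12, 12 and 14 in WT stimulated libraries, and in 15, 13 and 13 in KO control and 11, 12 and 12 in KO stimulated ones. Arhgef37, Cnksr3, Lrrc27 and Wdr95 also rose in WT and fell in KO with no overlap in either genotype (5 of 14289 genes, 0.0350%), and 0 genes did the reverse; they were singled out after their values were seen. Wdr95 had 5, 5 and 5, then 7, 7 and 7 regions in WT and 5, 6 and 5, then 2, 3 and 4 in KO cells. With 17555 peaks per library, D at Inpp4b and Wdr95 was 1.

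**Figure D3:**
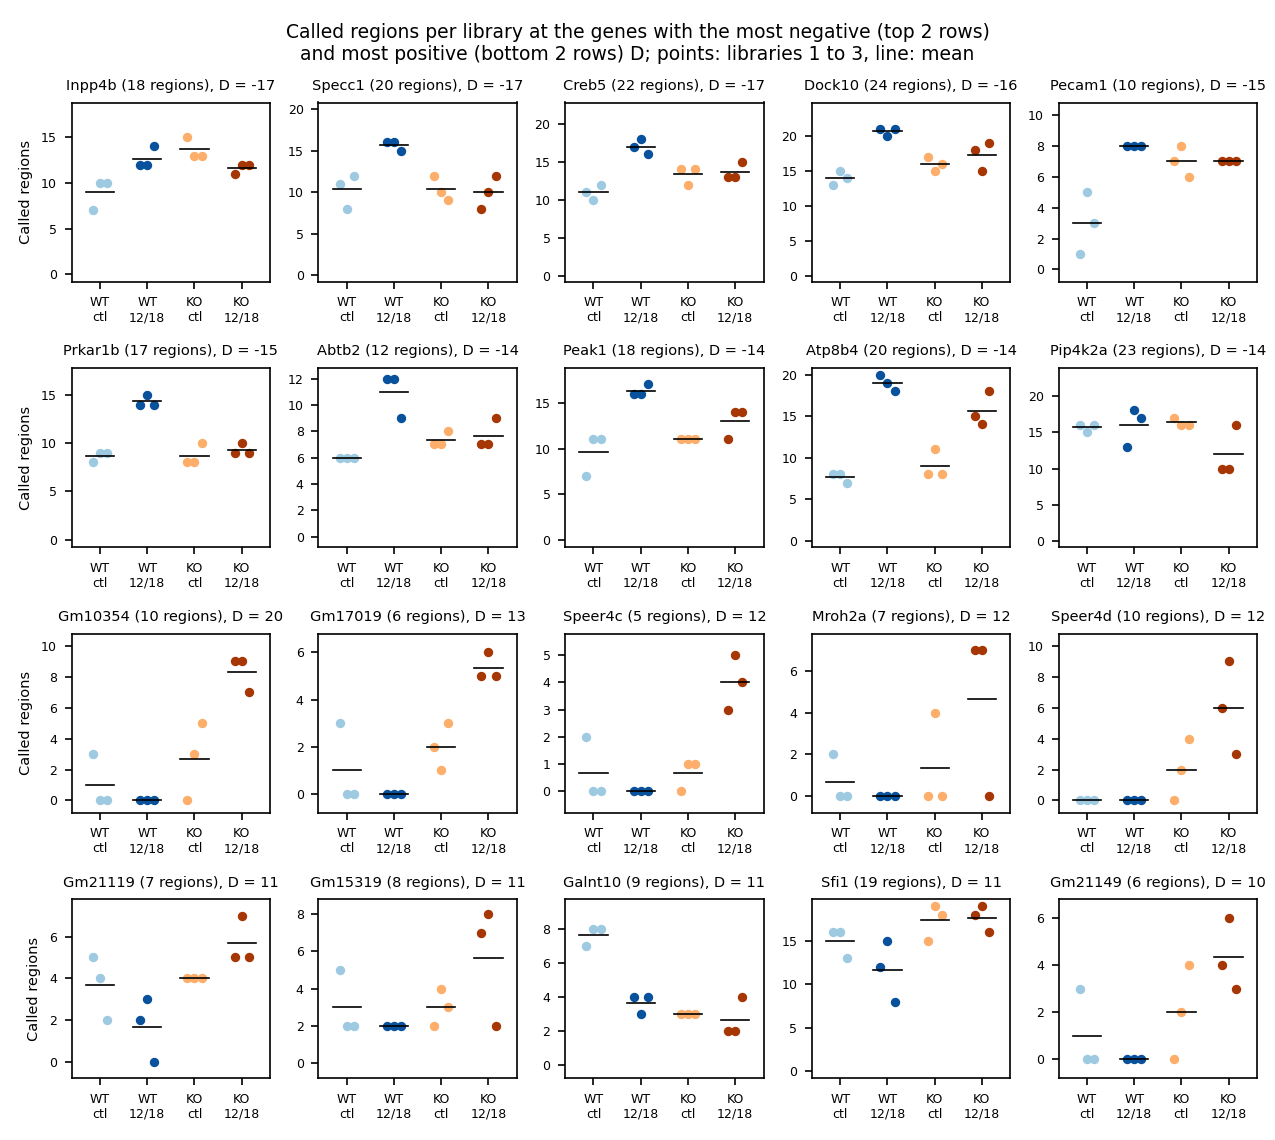
Number of called regions (vertical axis) in each of the 12 libraries at the 10 genes with the most negative and the 10 with the most positive D, with the group mean as a line. At Pecam1 the 3 WT control libraries, at 1 to 5 regions, lie below all others, and at Prkar1b the WT stimulated libraries, at 14 and 15, lie above all others.

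The most positive sums were at Gm10354 (20), Gm17019 (13), Speer4c, Mroh2a and Speer4d (12 each), Gm21119, Gm15319, Galnt10 and Sfi1 (11 each) and Gm21149 (10). Most are members of multi-copy families on chromosomes 5 and 8, where reads from near-identical copies may be split, so their values are uncertain. At Gm10354 the libraries called 3, 0 and 0, then 0, 0 and 0, then 0, 3 and 5, then 9, 9 and 7 of 10 regions, but the full lists held a peak at 3 to 10 of them in each library, with folds of 2.56 to 8.84. Mroh2a was called at 7, 7 and 0 regions in KO stimulated libraries, and all 7 regions had a peak in all 12 full lists.

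Galnt10, which starts mucin-type O-glycosylation, had its highest counts in WT controls. It had 7, 8 and 8 of 9 regions in WT control, 4, 3 and 4 in WT stimulated, 3, 3 and 3 in KO control and 2, 2 and 4 in KO stimulated libraries (D of 11 ± 2.45, SE; exact permutation p = 0.11). WT controls lay above all other groups without overlap. Among its regions 4 were called 3, 0, 0 and 0, that is, in WT controls alone. The full lists held a peak at 7, 8 and 8 regions in WT control and 6, 5 and 8 in WT stimulated libraries. In KO they held one at 8, 6 and 4 regions in control and 2, 2 and 6 in stimulated libraries. Weaker peaks thus remained in the other groups at part of these regions. With all deposited peaks D at Galnt10 was -9.

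**Figure D4:**
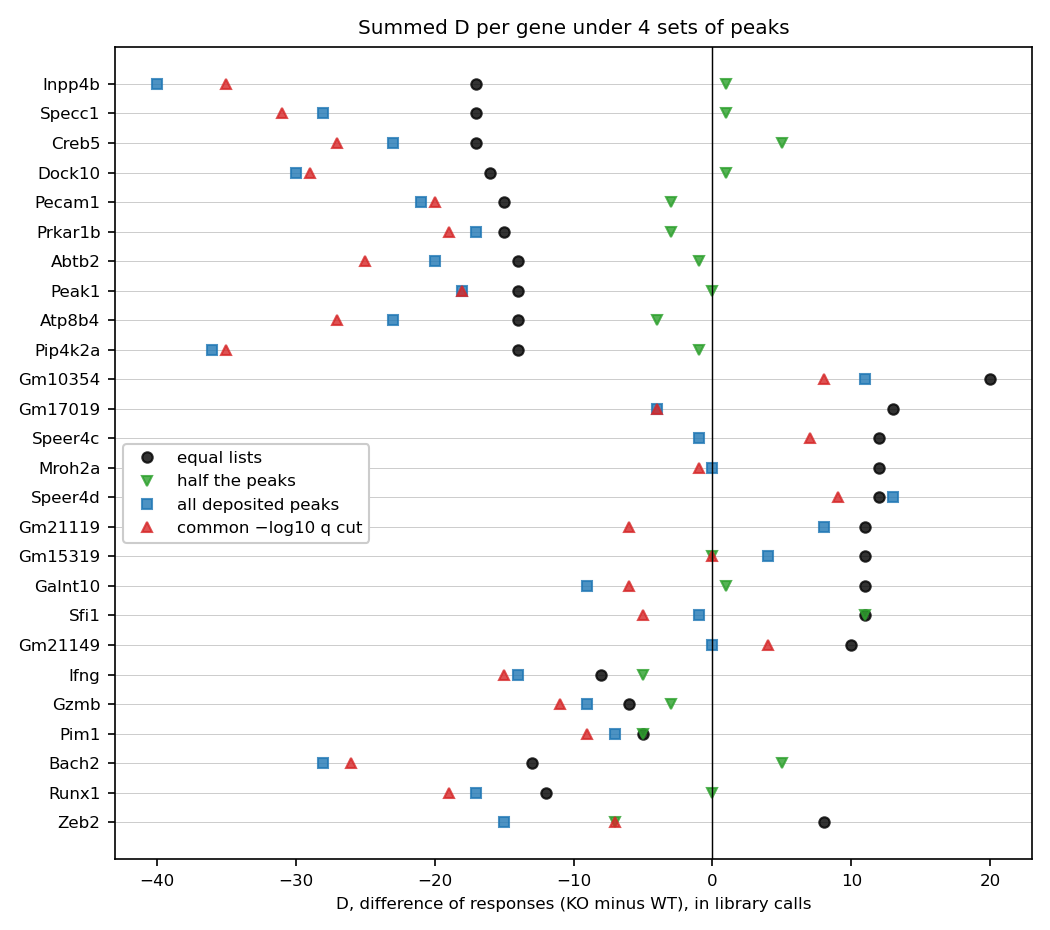
D per gene (horizontal axis, in library calls) for the 20 genes with the largest D and 6 list genes, under equal lists of 35110 peaks, 17555 peaks per library, all deposited peaks and a common −log10 q cut of 5; a gene with no region in a set has no symbol for it. Of the 10 most negative genes 5 stay below 0 under these sets and 50% cover, while Inpp4b, Specc1, Creb5 and Dock10 turn to 1, 1, 5 and 1 with 17555 peaks.

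The sums depended on the set of peaks, as the plot of D by peak set shows. Of 4 other peak sets (all deposited peaks, 17555 per library, a common cut of the deposited −log10 q and 50% cover), Pecam1, Prkar1b, Abtb2, Atp8b4 and Pip4k2a stayed below 0 in all, and 0 of the 10 most positive genes stayed above 0 in all. Over all genes 373 of 1376 (27.1%) with D of -3 or lower stayed below 0, and 4 of 779 (0.513%) with D of 3 or higher stayed above. All deposited peaks and the common cut move most sums downwards (of the 207 list genes described next, 123 and 132 then had D of -3 or lower and 3 and 0 had D of 3 or higher), so these shares do not compare the 2 directions.

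The 12 gene lists on NK function held 207 genes with regions, with a median D of 0, as over all genes. D was -3 or lower in 38 (18.4%) and 3 or higher in 20 (9.66%). List genes had a median of 5 regions against 2 over all genes. Among the 112 with 5 or more regions the shares were 24.1% and 13.4%. They were 28.6% and 13.7% of all such genes, so the lists as a whole did not stand out. The counts of single lists below are to be read beside these shares, and none was tested. Of the 38 low genes 12 (31.6%) stayed below 0 in all 4 other peak sets, against 27.1% over all genes, and 0 of the 20 high genes stayed above. The 12 were Ifng, Gzmb, Pim1, Tbx21, Tox2, Ikbkb, Klra9, Zfp36l1, Pdcd1lg2, Tnfsf10, Cx3cr1 and Itgax.

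Of 18 genes of IL-12 and IL-18 signalling, 1 had D of -3 or lower (Irak4, the first kinase recruited by MyD88, -3) and 2 of 3 or higher (Irak1 and Stat4, 3 each). With all deposited peaks D was -7 at Stat4, -1 at Irak1 and -31 at Il12rb2, a subunit gene of the IL-12 receptor with D of -2 in the equal lists. Of 14 STAT, JAK and SOCS genes 1 was low (Jak1, -5) and 2 were high (Stat5b, 6, and Stat3, 5). Stat5b, which relays IL-2 and IL-15 signals, had 8, 8 and 9, then 8, 8 and 8 regions in WT and 7, 9 and 8, then 10, 10 and 9 in KO cells, and its D was -3 with all deposited peaks, where Stat3 was at -2 and Jak1 at -29.

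Of 18 NF-kB pathway genes 3 were low and 2 high. Rel, which encodes the subunit c-Rel, went from 1, 1 and 1 to 4, 4 and 5 of 5 regions in WT and from 2, 2 and 1 to 4, 3 and 3 in KO. It rose in both genotypes without overlap, with D of -5 (exact permutation p = 0.06), and D was 2 with 17555 peaks. Ikbkb (IKK-beta) and Tnip3 were at -3 and -4, and Traf1 and the inhibitor Tnfaip3 at 3 each, which turned to -4 and -16 with all deposited peaks. Of 18 genes that act in RNA decay or are known targets of Regnase-1, 4 were low (Il6, Nfkbid, Rc3h1 and Zfp36l1, -3 each) and 0 high. Zfp36l1 is, like Regnase-1, a promoter of messenger RNA decay, and it had 3, 3 and 3 regions in WT and KO controls, 2, 3 and 3 in WT and 1, 2 and 2 in KO stimulated libraries. At Zc3h12a D was -2.

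Of 28 NK transcription factors, with a median of 9 regions per gene, 9 were low and 3 high. Of all genes with 5 or more regions 28.6% were low and 13.7% high. Prdm1 rose from 8, 8 and 8 to 13, 13 and 14 of 15 regions in WT and from 9, 9 and 11 to 12, 12 and 12 in KO (D of -9), again in both genotypes without overlap, and D turned to 5 with 17555 peaks. Runx1 (D of -12) went from 18, 16 and 18 to 21, 21 and 23 in WT, while in KO it went from 17, 18 and 17 to 15, 18 and 20 and overlapped. Zeb2 had the largest positive sum of the lists (8), with 6, 6 and 6, then 9, 9 and 10 regions in WT and 8, 6 and 6, then 12, 13 and 13 in KO cells. It rose more in KO, without overlap between the stimulated groups, but D was -7 with 17555 peaks and -15 with all deposited peaks. Irf8 was at 6 and Gata3 at 4, and both turned negative with 17555 peaks (-2 and -1). Tbx21, which encodes T-bet, was at -3. Of 13 AP-1 family genes 3 were low, with Bach2 lowest (-13; 18, 17 and 16, then 20, 20 and 21 in WT and 19, 17 and 17, then 16, 16 and 18 of 23 regions in KO), and 1 was high (Fosl1, 4). Bach2 turned to 5 with 17555 peaks.

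Among effector genes, 1 of 17 cytokine and chemokine genes was low (Ifng) and 1 high (Ccl3, 3, from 1 region called in the 3 KO stimulated libraries alone, where all 3 WT stimulated lists held a weaker peak). Of 12 cytotoxic granule genes 2 were low and 1 high (Srgn, 3). Gzmb had 8, 9 and 9, then 10, 10 and 10 regions in WT and 9, 9 and 9, then 7, 9 and 9 in KO (D of -6; exact permutation p = 0.05, adjusted p = 1.00), and Tnfsf10, the death ligand TRAIL, was at -4. Of 24 NK receptors and adaptors 2 were low (Klra7 and Klra9, -4 each, members of the Ly49 family whose near-identical copies make them uncertain) and 2 high (Cd244a and Klrb1c, 3 each).

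Of 10 checkpoint genes 3 were low. Cd274 went from 1, 1 and 1 to 4, 4 and 4 of 4 regions in WT and from 1, 2 and 1 to 3, 3 and 3 in KO (D of -4), Ctla4 and Pdcd1lg2 were at -5, and Pdcd1 (PD-1) was at 3. Of 16 homing and maturation genes 6 were low and 2 high. Itga1 (CD49a, a collagen-binding integrin of tissue-resident NK cells) was lowest at -7, and turned to 4 with 17555 peaks. Cxcr3, a chemokine receptor, had 2, 2 and 2, then 3, 3 and 3 regions in WT and 2, 2 and 2, then 1, 2 and 1 in KO, so WT stimulated libraries lay above all others (D of -5, but 3 with 17555 peaks). Itgam (CD11b, a maturation marker) had D of 5 (exact permutation p = 0.03, adjusted p = 1.00) and 4, 4 and 4, then 4, 4 and 3 regions in WT and 3, 3 and 3, then 5, 4 and 4 in KO. Its D was -10 with all deposited peaks and -7 with the common cut. Itgam is also on the myeloid marker list, whose summed calls were 5 to 7 in every library. Of 20 growth and metabolism genes 3 were low (Pim1 and Slc2a1, -5 each, and Ccnd2, -4) and 3 high (Ccnd3, 5, Cdk6 and Slc7a5, 3 each), which turned to -7, -22 and -10 with all deposited peaks. Pim1 had 2, 2 and 2, then 5, 5 and 4 regions in WT and 3, 3 and 3, then 4, 4 and 4 in KO (D of -5 ± 1.00, SE; exact permutation p = 0.02, adjusted p = 1.00). Its 4 groups did not overlap except that WT and KO stimulated libraries met at 4.

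Regions called in all 12 libraries have D of 0, so their strength was tested apart from it. Within each library the 21089 such regions were ranked by the deposited −log10 q, the ranks were turned into normal scores, and the difference of responses was tested with limma. With Benjamini-Hochberg adjustment 4 regions passed, 2 with a lower KO response (0.00948% of those tested) and 2 with a higher one (0.00948%), and 1718 had an unadjusted p of 0.05 or less (773 lower, 945 higher).

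In Mvp, the major vault protein gene, the region chr7:127006934-127009523 rose from rank 20876, 20992.5 and 20729 to 6733.5, 6802 and 8101 in WT and from 17035, 18209.5 and 17698 to 9699.5, 10975 and 10283.5 in KO cells. All 4 groups were apart, with KO between the WT groups (difference of -1.74 ± 0.184, SE, in normal scores; limma, adjusted p = 0.0158). In Sfpq, a splicing factor gene, chr4:127040039-127041811 rose from 20876, 20908.5 and 20921 to 4836.5, 4935.5 and 5289 in WT. In KO it rose from 19405, 18853.5 and 19170 to 5749, 5369.5 and 5388.5 (-1.11 ± 0.128, SE, limma, adjusted p = 0.0189). Its mean scores were -2.37 in WT and -1.33 in KO at rest. With stimulation they were 0.71 and 0.64, so the genotypes differed mostly at rest. At Mvp and Sfpq the WT controls stood near the weakest rank, where normal scores stretch gaps in rank.

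In the other two the KO loss was smaller. In Ptpn6, which encodes SHP-1, the phosphatase that relays inhibitory NK receptor signals, chr6:124721762-124725393 fell from rank 5061, 5922.5 and 6027.5 to 18515, 17441 and 17481 in WT and from 7480.5, 7266.5 and 7656 to 9699.5, 11983.5 and 12122.5 in KO (1.18 ± 0.158, SE; limma, adjusted p = 0.0471). An intergenic region, chr5:29901393-29902511, 111 kb from its nearest gene Il6, fell from 9904.5, 8182 and 9158 to 20696, 20662 and 20842 in WT and from 7609.5, 7627 and 8287.5 to 13950, 16591.5 and 14988 in KO (1.39 ± 0.169, SE; limma, adjusted p = 0.0217). In each of the 4 regions the control and stimulated libraries of a genotype did not overlap. At the intergenic region the WT stimulated libraries stood near the weakest rank, where normal scores stretch gaps in rank. The calls were not stable. Leaving out 1 library left 0 to 5 lower and 0 to 3 higher regions, although the 4 differences kept their sign. Fewer regions passed with a replicate block, and none with a replicate block within genotype, as given in the closing section.

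**Figure D5:**
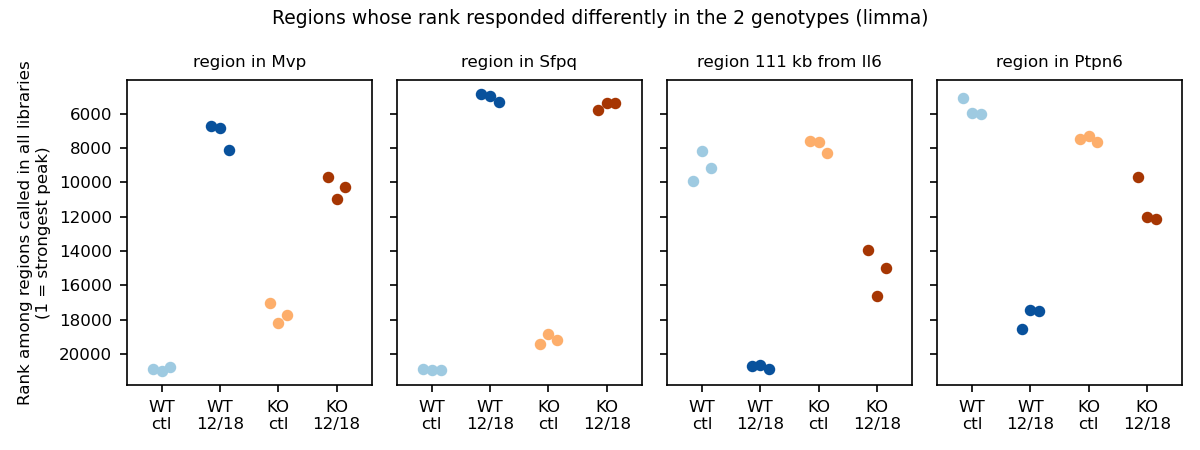
Rank among the 21089 regions called in all 12 libraries (vertical axis, strongest at the top) for the 4 regions whose response differed between genotypes by limma, 3 libraries per group. At Mvp and Sfpq the WT rise from the weakest ranks is the larger, and at the intergenic and Ptpn6 regions the WT fall is the larger.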

How the data were processed

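The 12 deposited peak lists were used, 1 per ATAC-seq library and none pooled. Per the submitters' processing notes reads were handled with MACS2 2.1.1.20160309, Bowtie2 2.3.4.1, cutadapt 4.1, deepTools 3.4.2, SAMtools 1.15.1 and FastQC 0.11.9 on mm10. The sources used here do not give the role or settings of each tool, nor any read shift or duplicate removal. Each interval carries the authors' fold enrichment (a ratio), −log10 p, −log10 q and an integer score, all deposited by the authors and all peak-wise values of its own library. They were used to rank or describe peaks within a list, never to compare folds between libraries. Read depth is unknown, so no interval from depth is given.

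Identical intervals with several summits were counted once, and chromosomes 1 to 19, X and Y were kept. The 35110 strongest intervals per library by −log10 q were merged at 1 bp overlap, regions in 2 or more libraries were kept, and each took the closest protein-coding gene (distance to its body, at most 50 kb; RefSeq, GRCm38.p6). Equal list lengths fix the number of calls, so a gain of some peaks pushes others past the cut. D was tested by an exact two-sided permutation of genotype within treatment with Benjamini-Hochberg adjustment. The 21089 regions called in all 12 libraries were tested with limma 3.58.1 in R 4.3.3 on normal scores of the within-library rank of −log10 q. Ranks in a deposited list beyond 35110 describe weaker peaks that were not called. Python 3.11.15, numpy 2.4.6, pandas 2.3.3, scipy 1.17.1 and matplotlib 3.10.9 were used, and the tests were tested on simulated data.

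Groups follow the samples' labels. Replicate numbers were not taken to pair libraries, since the labels do not say that they do. Of 18 same-numbered pairs across groups, 8 had deviations correlated above 0.1 (r of -0.0126 to 0.367). Same-numbered control and stimulated libraries of a genotype had r of 0.0372 to 0.161, and other-numbered pairs across groups -0.314 to 0.225. Whether the numbers mark pairs was not tested, and the counts with replicate blocks are in the closing section. The members and gene lists were chosen with earlier results of these data known. Named were the 10 genes with the largest D in each direction, the list member with the lowest and highest D of 3 or more in size, Ifng, Zc3h12a, the 5 regions with the largest D in each direction and the 5 regions of smallest adjusted p per direction in the rank test (of which those that did not pass are given in the closing section). Other genes and regions named were chosen after their values were seen. Alternatives covered the peaks per library, ranking by fold, the overlap that counts as a call, the number of calling libraries, the gene distance, leaving out each library, and replicate blocks. Region sequences outside promoter windows were not used here.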

Additional observations from a re-analysis of the deposited data

Results flagged for a closer look

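The response differed between genotypes by limma at 4 of 21089 regions called in all libraries. The difference, KO minus WT in normal scores, was -1.74 at Mvp, where the response was 2.76 in WT and 1.01 in KO, and -1.11 at Sfpq (3.08 and 1.97). It was 1.39 at the intergenic region 111 kb from Il6 (-2.31 and -0.92) and 1.18 at Ptpn6 (-1.64 and -0.46).

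At 5 genes every WT stimulated library had more called regions than every WT control and every KO stimulated library fewer than every KO control. No gene did the reverse, and the opposite movement itself was not tested. D was -17 at Inpp4b, -13 at Wdr95, -8 at Lrrc27, -7 at Cnksr3 and -6 at Arhgef37. Lrrc27 had 2, 3 and 3, then 4, 4 and 4 regions in WT and 3, 3 and 3, then 1, 2 and 2 in KO. Cnksr3 had 4, 4 and 4, then 5, 5 and 6 in WT and 6, 6 and 6, then 5, 5 and 5 in KO. Arhgef37 had 2, then 3 in every WT library and 3, then 2 in every KO library. At single regions the same opposite form, with D of -6, was seen near Ceacam9, where 2 WT control and 2 KO stimulated lists held weaker peaks past the cut.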

How the results depend on the processing

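The peak set mattered most. With all deposited peaks 4987 regions had D of -3 or lower and 279 of 3 or higher, with a common −log10 q cut of 5 the counts were 4764 and 209, with 17555 peaks per library 487 and 443, and with calls that cover 50% of a region 2037 had D of -3 or lower. The region and gene tests of D gave 0 under every alternative run, which says little given the limits of both tests. Leaving out 1 library left 1299 to 2231 regions with D of -3 or lower (2231 without KO stimulated library 3) and 956 to 1321 with D of 3 or higher. In the rank test, 0 lower and 0 higher regions passed with regions that had a peak in all 12 full lists, and 1 lower with a trended robust prior. Leaving out 1 library gave 0 to 5 lower (5 without KO stimulated library 1) and 0 to 3 higher. With a replicate block 1 lower and 0 higher passed, and with a replicate block within genotype 0 and 0. The cause of these shifts was not tested.

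Gene sums given in the report that turned sign were, with all deposited peaks, Cdk6 -22, Irf8 -18, Tnfaip3 -16, Zeb2 -15, Slc7a5 -10, Stat4 -7, Stat3 -2, Itgam -10, Galnt10 -9, Ccnd3 -7, Gm17019 -4, Traf1 -4, Cd244a -3, Srgn -3, Stat5b -3, Irak1 -1, Sfi1 -1, Speer4c -1 and Klra7 2, and the Dop1b region -1. With the common cut they were Cdk6 -22, Irf8 -17, Tnfaip3 -15, Stat4 -11, Ccnd3 -10, Slc7a5 -6, Klrb1c -5, Gata3 -1, Stat3 -1, Itgam -7, Zeb2 -7, Galnt10 -6, Gm21119 -6, Sfi1 -5, Cd244a -4, Gm17019 -4, Irak1 -3, Stat5b -3, Ccl3 -2, Fosl1 -1, Mroh2a -1, Pdcd1 -1 and Srgn -1, and the Bin3 and Dop1b regions -1 each. With 17555 peaks they were Bach2 5, Creb5 5, Prdm1 5, Cxcr3 3, Gata3 -1, Klrb1c -1, Irf8 -2, Cdk6 -3, Tnfaip3 -4, Itga1 4, Il6 3, Klra7 3, Ctla4 2, Rel 2, Dock10 1, Inpp4b 1, Specc1 1, Wdr95 1, Irak1 -1, Srgn -1, Pdcd1 -2 and Zeb2 -7. With 50% cover they were Cdk6 -5, Il6 3, Jak1 3, Ccnd3 -1 and Pdcd1 -2, with regions in 3 or more libraries Cd244a -1, and with genes within 20 kb Tnfaip3 -1 and Rc3h1 1. Without WT control library 2 Cd244a was -1.5 (range -1.5 to 4 over the 12 libraries left out), and without KO stimulated library 3 Stat4 was -1 (range -1 to 4.5). Sums of genes in multi-copy families also moved, Speer4d between 1 and 17.5 and Mroh2a between 5.5 and 19.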

Other observations

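The other named regions of the rank test did not pass it. Fndc3a, 41.9 kb from its region, had a difference of -0.84 (limma, adjusted p = 0.0797) and Sox5, a transcription factor gene, of -1.36 (adjusted p = 0.135). An intergenic region, chr5:11681751-11683187, had -1.12 (limma, adjusted p = 0.204). In the other direction Sh3pxd2a, a podosome scaffold gene, had 1.80 (limma, adjusted p = 0.0641). Nfatc2, which encodes an NFAT transcription factor, had 1.29 and Dhrs3, a retinal reductase gene, 1.57 (limma, adjusted p = 0.204 each).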
